A study of Mus musculus with 29 samples.

Results

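The comparison described here sets lung alveolar septa of postnatal day 13.5 to 15 (P13.5-P15, when the bulk of septation is ending) against septa of P7-P10 (when septa are being raised). Its members were taken by the age in the labels and comprise 8 of the 29 libraries of the series, 4 in each window: P7c, P7d, P10a and P10f in the earlier window, and P13.5c, P13.5d, P15c and P15e in the later. Each library holds alveolar tissue cut by laser capture microdissection from frozen lung sections of a single pup, with the cut placed so as to leave out large vessels and bronchi. All animals were untreated wild type mice of the C57BL/6 strain, so the windows differ by age and by what goes with age. Body weights were 6, 3.2, 6.5 and 6.2 g in the earlier window and 9.1, 6.8, 9.1 and 7.2 g in the later. The labels do not say which pups shared a litter.

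In the mouse, alveoli form largely after birth. Ridges called secondary septa rise from the walls of the primitive airspaces, with contractile alveolar myofibroblasts and newly laid elastin at their tips, and divide those spaces into alveoli. Once the bulk of the septa has formed, the walls thin, the capillary network matures into a single layer, and the myofibroblasts are lost from the septa. The interval between these windows therefore spans the change from building the septum to refining it.

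The values are FPKM (fragments scaled by transcript length and by the mapped fragments of the library), which keep no read counts, so the depth of each library is unknown. The 8 libraries summed to between 318205 and 417104 FPKM and had 10756 to 12861 genes at an FPKM of at least 1. The noncoding RNA *Rpph1* had the highest value in each. It held 6.14 to 10.95% of the summed FPKM in the earlier libraries and 13.7 to 16.9% in the later ones, without overlap. Defining genes of the septal wall were present in every library: *Sftpc*, the surfactant protein of alveolar type 2 cells, ranged from 5350 to 13030 FPKM, *Ager*, a marker of the flat type 1 cells, from 179 to 524, and the endothelial adhesion gene *Pecam1* from 198 to 291. *Scgb1a1*, the secretory protein of airway club cells, was also high (819 to 4988 FPKM), with ranges that overlapped between the windows. *Scgb3a2*, another secretory gene of airway cells, was at 124 to 324 FPKM before and 29.3 to 72.1 after (-1.93, adjusted p = 0.116). The club cell list had 8 tested genes and 0 calls, and without P15c 1 call, that of *Retnla* (lower). Among its members that failed the filter, *Reg3g*, *Bpifb1* and *Muc5b* were at 82.2, 23.4 and 12.6 FPKM in P10a. In the other libraries they reached at most 5.91, 1.485 and 1.59 FPKM, and *Bpifa1* was at 0 throughout. The summed level of the list in P10a, 2141 FPKM, lay within that of the other libraries (1020 to 5591). In the library P10a, 416 of 8623 widely expressed coding genes were listed at 0, against 1 to 112 in the other 7 libraries. *Xist* and the Y-linked genes went against the labelled sex in 5 of the 8 libraries. By those genes, both windows hold 2 animals of each sex, but the P7 and P13.5 pups are of the same sex and the P10 and P15 pups of the other, so within a window age and sex cannot be told apart. P15c stood apart in genes of immune cells and of the interferon response, and each gene list median printed here that leaving out P10a or P15c moved by over 1.5 times is given with and without that library.

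Between P7-P10 and P13.5-P15, matrix genes such as *Tnc* and *Vcan*, the contractile genes *Acta2* and *Myl9* and the fetal RNA *H19* fell in the septa, while *Zbtb16*, *Hsd11b1*, *Gpx3*, *Fmo2* and *Inmt* rose. Of 12505 genes tested, 34 passed an adjusted p of 0.05 (0.272%), with 11 higher (0.088%) and 23 lower (0.184%) in the later window. The test was limma's moderated comparison on log2(FPKM + 1) with Benjamini-Hochberg adjustment, and every difference given is the later minus the earlier window on that scale, which understates the change of low genes. At an unadjusted p under 0.05 there were 1178 genes. In all 34 called genes the 4 later libraries lay wholly above or wholly below the 4 earlier ones, a separation that 285 of all genes tested showed upward (2.28%) and 459 downward (3.67%). The calls rested on few animals: leaving out P7c gave 0 called genes, P7d 1, P15e 2, P13.5c 9 and P13.5d 12, whereas 18 were called without P15c and 24 without P10f. Without P10a, 22 genes were called (0.176%), 9 higher (0.072%) and 13 lower (0.104%), and 19 of them were among the 34. Each of the 34 genes missed the threshold in 2 to 8 of the 8 fits that left out 1 library, and none changed sign. The median difference over all genes tested was -0.01 (-0.06 without P10a, -0.02 without P15c and 0.04 under median ratio scaling). Of these genes, 6151 had a difference above 0 and 6354 below 0 (50.8%), and the list counts below are to be read beside these shares.

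**Figure D1:**
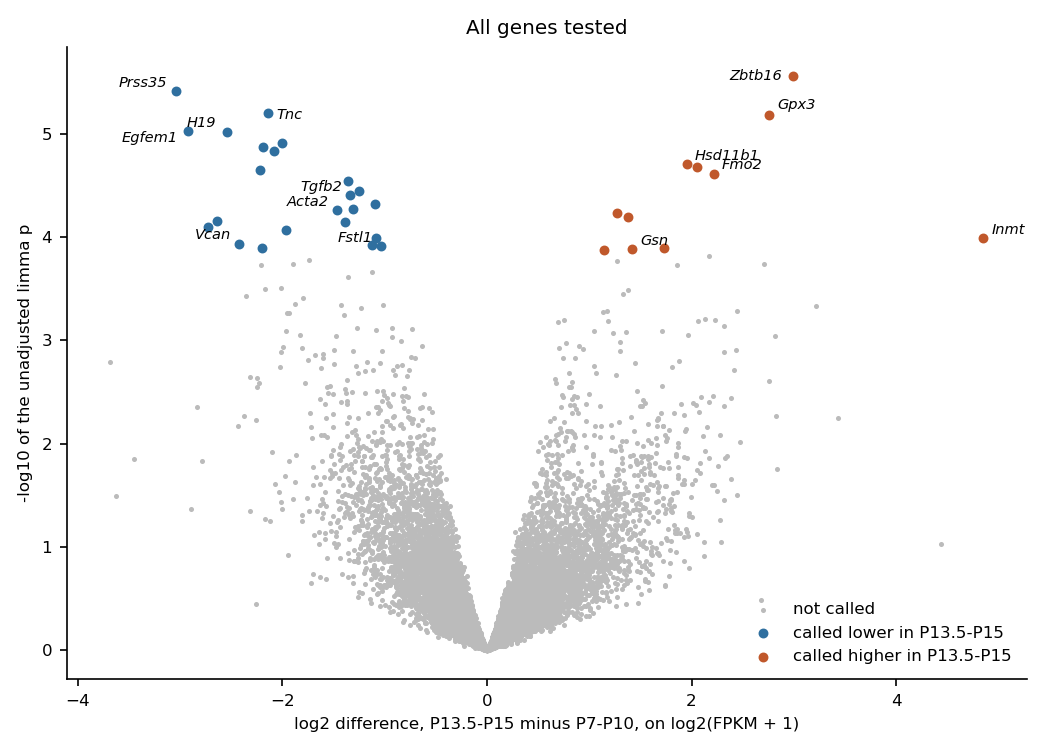
Each point is 1 of the 12505 genes tested, placed by its log2 difference (P13.5-P15 minus P7-P10, on log2(FPKM + 1)) and by the -log10 of its unadjusted limma p. The 23 genes called lower (blue) lie between -3.04 and -1.04, and the 11 called higher (orange) between 1.14 and 4.85.

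Matrix glycoproteins of growing tissue were among the genes called lower. *Tnc* encodes tenascin-C, an adhesion-modulating glycoprotein of developing and remodelling tissue (chr4:63959785-64047015, GRCm38.p6). It stood at 274, 279, 222 and 170 FPKM in P7c, P7d, P10a and P10f and at 73.5, 63.2, 44.4 and 35.1 FPKM in P13.5c, P13.5d, P15c and P15e. Every later library was thus below every earlier one, with the P15 pair lowest. The means were 236 ± 51.0 and 54.1 ± 17.5 FPKM (SD, n = 4 each), a log2 difference of -2.14 (SE 0.256, adjusted p = 0.0199). *Vcan* encodes versican, a large hyaluronan-binding proteoglycan (chr13:89655309-89743027). Its values were 107 and 106 FPKM at P7, 31.3 and 40.7 at P10, and 9.60, 9.09, 16.2 and 9.32 in P13.5c, P13.5d, P15c and P15e. The P10 values thus lay between those of P7 and of the later window, and the difference between the windows was -2.42 (SE 0.405, adjusted p = 0.0495). The call of *Vcan* held without P10a (limma adjusted p = 0.0288). It was lost with a pseudocount of 0.1 (0.0692) and, for example, without P7c (0.174) or P15e (0.199). Of the 15 tested genes of a list of provisional matrix, *Tnc* and *Vcan* were called lower and none higher, against 0.184% of all genes tested called lower. In this list 12 differences were below 0 (50.8% of all genes tested) and the median was -0.56. The others included *Thbs1* (thrombospondin-1, an activator of latent TGF-beta), whose later values of 57.9 to 97.6 FPKM lay below the earlier 106 to 131 without passing the test (adjusted p = 0.317), and the hyaluronan synthase *Has1*, at 5.09 to 10.6 after 6.12 to 19.2 FPKM (adjusted p = 0.522).

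Contractile genes of the alveolar myofibroblast were lower as well. *Acta2*, smooth muscle actin (chr19:34240336-34255585), was at 174, 153, 143 and 102 FPKM in the earlier libraries and at 60.8, 36.8, 46.4 and 61.2 FPKM in the later ones. The ranges did not overlap and the difference was -1.46 (SE 0.224, adjusted p = 0.0361). *Myl9*, the regulatory light chain of smooth muscle and nonmuscle myosin, was at 141, 130, 154 and 118 and then at 48.8, 46.0, 71.0 and 62.0 FPKM. Its difference was -1.25 (SE 0.182, adjusted p = 0.0296). *P2ry14*, a receptor for UDP-sugars, went from 82.6 to 130 FPKM to between 12.5 and 35.6 FPKM (-1.97, SE 0.317, adjusted p = 0.0427). None of these 3 calls held without P10a, where the adjusted p values were 0.0697, 0.0641 and 0.107, although the differences themselves were -1.45, -1.19 and -1.88. In a bulk sample of this kind, fewer cells of a type and less RNA per cell cannot be told apart.

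Among the 19 tested genes of the alveolar myofibroblast list, these 3 were called lower and none higher, against 0.184% of all genes tested called lower. In this list 15 differences were below 0 (50.8% of all genes tested) and the median was -0.63. *Tgfbi*, a secreted adhesion protein induced by TGF-beta, was at 357, 295, 189 and 174 FPKM and then at 52.3, 54.4, 144 and 35.3 FPKM, without overlap (-1.96, adjusted p = 0.116), and passed the test without P15c. The list did not move as a block. *Tagln*, another actin-binding protein of contractile cells, overlapped between the windows at 75.6 to 121 and 43.8 to 96.1 FPKM (adjusted p = 0.584). *Pdgfra*, the receptor that marks myofibroblast precursors and other alveolar fibroblasts, differed in the opposite direction, at 61.5, 44.8, 54.5 and 50.2 FPKM before and 78.8, 85.3, 88.4 and 112 FPKM after (0.77, adjusted p = 0.156). *Enpp2*, the lysophosphatidic acid-producing enzyme autotaxin, was also above its earlier range, at 29.4 to 45.1 after 9.86 to 20.9 FPKM (1.00, adjusted p = 0.265). The pericyte list (15 tested, 0 called, median -0.27, or -0.09 without P15c and -0.16 without P10a) and the vascular smooth muscle list (10 tested, 0 called, median -0.37) were included because those cells share contractile genes with the myofibroblast. The summed level of the vascular smooth muscle list was 391 to 537 FPKM in the earlier window and 255 to 418 in the later, and its part in the decrease of *Acta2* and *Myl9* was not tested.

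Elastic fibres are built from elastin laid on a fibrillin scaffold and cross-linked by lysyl oxidases. *Loxl2*, a cross-linking enzyme, was at 121, 116, 139 and 96.9 FPKM in P7c, P7d, P10a and P10f and at 50.6, 55.7, 34.4 and 42.5 FPKM in the later libraries (-1.36, SE 0.193, adjusted p = 0.0255, and 0.0527 without P10a). It was the 1 called gene of the 22 tested in the elastic fibre list, whose median was -0.38 with 16 differences below 0 (50.8% of all genes tested). Elastin itself did not separate the windows. *Eln* stood at 367 and 431 FPKM at P7, 1495 and 1087 at P10, 969 and 632 at P13.5, and 572 and 531 at P15, so that its highest values were those of P10 and the window difference was -0.12 (adjusted p = 0.949). The fibrillin gene *Fbn2*, prominent in fetal elastic fibres, was at 6.98 to 18.1 and then at 2.19 to 4.89 FPKM (-1.60, adjusted p = 0.174), and *Fbn1* at 119 to 153 and then at 85.1 to 104 FPKM (-0.54, adjusted p = 0.299). *Fbln5*, which tethers elastin to cells, was at 22.8 to 54.0 and then at 14.5 to 21.2 FPKM (-0.92, adjusted p = 0.311). In 6 of the 22 tested members of this list the later libraries all lay below the earlier ones, against 459 of all 12505 genes tested (3.67%).

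Fibrillar collagen genes gave 0 calls among 26 tested, with a median of -0.33 and 20 differences below 0 (50.8% of all genes tested). *Col1a2* had non-overlapping ranges of 122 to 203 and 75.3 to 82.0 FPKM (-0.84, adjusted p = 0.154), whereas *Col1a1* overlapped at 85.3 to 169 and 72.9 to 126 FPKM (-0.47, adjusted p = 0.596) and *Col3a1* at 231 to 375 and 251 to 314 FPKM (-0.14, adjusted p = 0.861). *Col12a1*, a fibril-associated collagen, was at 14.7 to 33.0 and then at 6.67 to 12.5 FPKM (-1.31, adjusted p = 0.167). The 22 tested genes of the basement membrane had a median of 0.04 and 0 calls (0.09 without P10a and 0.12 without P15c). Within it the chains of the mature type IV network, *Col4a3*, *Col4a4* and *Col4a5*, differed by 0.79, 0.68 and 0.84, and the laminin and nidogen genes *Lama5* and *Nid1* by -0.66 and -0.45, none past the test.

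**Figure D2:**
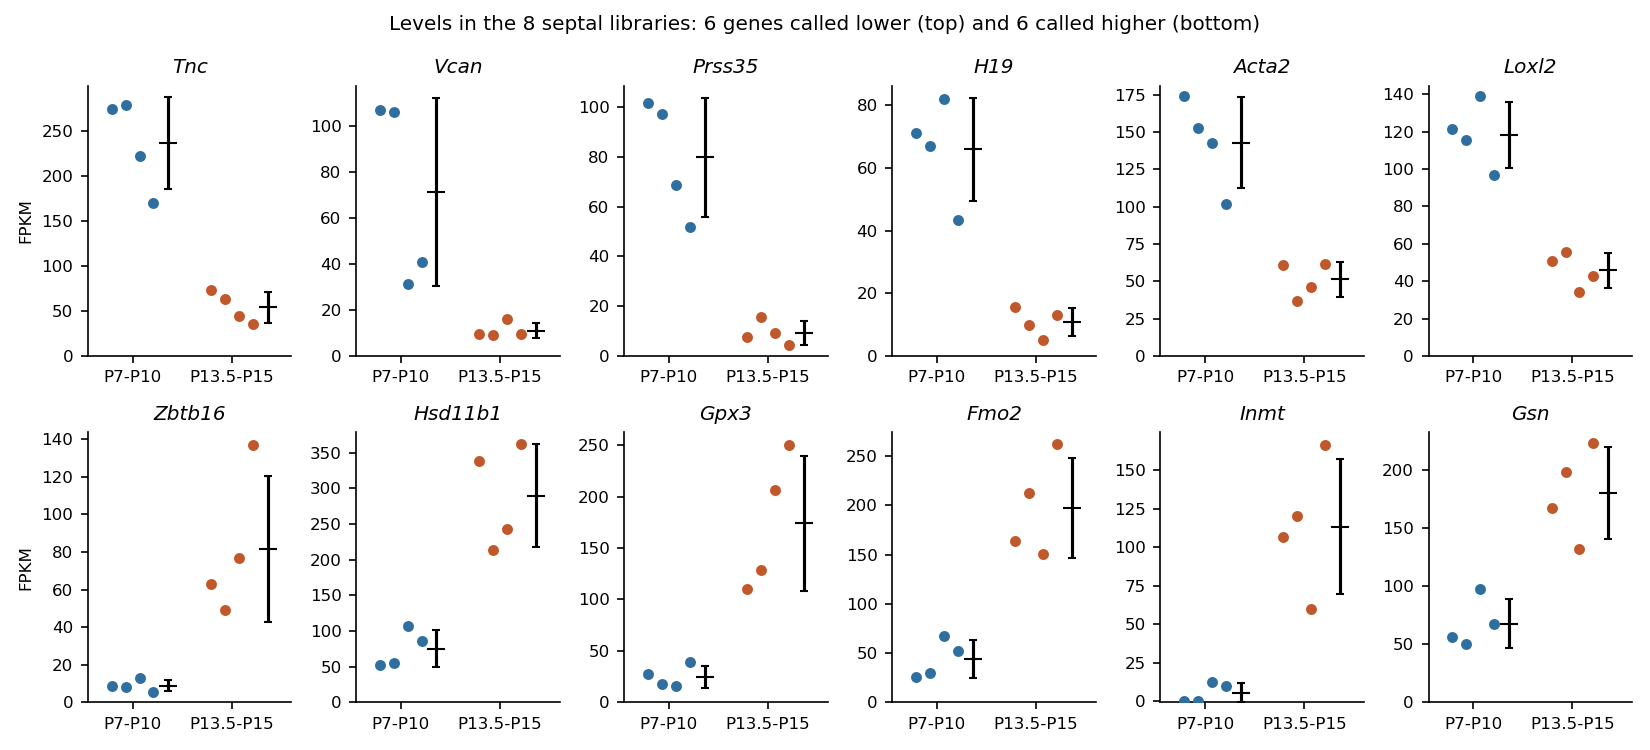
FPKM of 12 called genes in each library, linear axes, with points in the order P7c, P7d, P10a, P10f (blue) and P13.5c, P13.5d, P15c, P15e (orange) and bars showing mean and SD (n = 4). In each of the 12 panels the windows do not overlap. The P10 points of *Tnc*, *Vcan*, *Prss35*, *Acta2*, *Hsd11b1*, *Fmo2*, *Inmt* and *Gsn* lie between those of P7 and of the later window. Those of *H19*, *Loxl2*, *Zbtb16* and *Gpx3* do not both lie there.

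Among growth regulators expressed in the fetus, *H19* fell. *H19*, an imprinted noncoding RNA of the fetus and neonate (chr7:142575530-142578146), was at 71.3, 67.1, 82.2 and 43.3 FPKM and then at 15.5, 10.0, 5.23 and 12.9 FPKM. The ranges were far apart, and the difference was -2.54 (SE 0.319, adjusted p = 0.0199). *Igf2*, the fetal growth factor next to it on the chromosome, was at 12.7, 9.91, 13.4 and 6.78 FPKM and then at 4.72, 3.89, 2.89 and 5.08 FPKM, without overlap but short of the test (-1.17, adjusted p = 0.299). Of the 20 tested members of the list of fetal and imprinted genes, *H19* was the 1 called, 16 differences were below 0 (50.8% of all genes tested) and the median was -0.57. *Grb10*, an imprinted inhibitor of insulin and IGF signalling, was at 62.5 to 81.0 and then at 30.1 to 52.5 FPKM (-0.93, adjusted p = 0.143), and *Plagl1*, an imprinted zinc-finger regulator, at 19.2 to 33.0 and then at 7.90 to 14.7 FPKM (-1.01, adjusted p = 0.266).

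In the IGF list of 15 tested genes, which had 11 differences below 0 and a median of -0.38 (-0.20 without P10a and -0.23 without P15c), *Igfbp4* was the 1 called. This carrier protein of IGFs was at 284, 248, 258 and 226 FPKM and then at 128, 138, 98.3 and 111 FPKM (-1.10, SE 0.165, adjusted p = 0.0351, and 0.0689 without P10a). *Igf1* itself was at 34.0 to 35.6 FPKM in all earlier libraries and at 10.6 to 29.5 FPKM later (-1.04, adjusted p = 0.290). *Igfbp3*, the main carrier of IGFs in serum, differed the other way, at 1.96 to 13.9 and then at 25.9 to 33.9 FPKM (1.97, adjusted p = 0.142), and *Pappa*, a protease that cleaves *Igfbp4* protein, was at 0 to 0.776 and then at 2.51 to 4.93 FPKM. *Pappa* passed the filter on low values only through the later window, which fixed its direction.

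*Tgfb2*, a ligand of the TGF-beta family, was at 50.2, 52.5, 42.0 and 40.8 FPKM and then at 14.1, 21.1, 16.0 and 20.3 FPKM, a difference of -1.34 (SE 0.197, adjusted p = 0.0309, and 0.0462 without P10a). The other ligands differed from it in pattern. *Tgfb3* had its highest values at P10, with 41.8 and 50.7 FPKM at P7, 81.9 and 81.4 at P10 and 21.8 to 52.5 FPKM later (adjusted p = 0.502), and *Tgfb1* overlapped throughout at 8.04 to 29.6 FPKM (0.04, adjusted p = 0.979). *Tgfb2* was the 1 called gene of 33 tested in the TGF-beta list, whose median was -0.07.

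The largest decreases among the called genes also included genes outside these lists. *Prss35*, a secreted protein of the serine protease family, was at 102, 97.1, 68.6 and 51.6 FPKM and then at 7.52, 15.8, 9.23 and 4.49 FPKM (-3.04, SE 0.346, adjusted p = 0.0199). *Egfem1*, which encodes a protein with EGF-like and EMI domains, was at 49.5 to 74.1 and then at 2.73 to 12.3 FPKM (-2.93, SE 0.367, adjusted p = 0.0199). *Slc27a6*, of the fatty acid transport protein family, was at 89.1 and 85.5 FPKM at P7, 32.0 and 31.7 at P10 and 3.54 to 12.8 later (-2.72, adjusted p = 0.0417), with P10 between the other ages as for *Vcan*. *Hoxb2*, a homeobox transcription factor, was at 10.8 to 24.3 and then at 0.403 to 2.52 FPKM (-2.64, adjusted p = 0.0392, and 0.0697 without P10a). Also called lower were *Cd248* (endosialin, a surface protein of stromal cells and pericytes) at -2.22, *Htra1* (a secreted serine protease) at -2.19, *Pdlim3* (a partner of alpha-actinin in actin filaments) at -2.19, *Fndc1* (a fibronectin type III protein) at -2.01 and the mesenchymal cadherin *Cdh11* at -1.39. The remaining decreases were those of the RNA-binding protein *Mex3a* (-2.08), the sulfotransferase *Chst2* (-1.31), the heparan sulfate proteoglycan *Gpc4* (-1.12), the microtubule-associated *Map1b* (-1.09) and the secreted glycoprotein *Fstl1* (-1.04). Without P10a, *Pdlim3*, *Chst2*, *Gpc4*, *Map1b* and *Fstl1* no longer passed (adjusted p of 0.116, 0.0641, 0.114, 0.106 and 0.114).

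Among the genes that rose, *Zbtb16* and *Hsd11b1* are linked to glucocorticoid, an adrenal hormone that promotes late lung maturation. The first is a target of the hormone and the second acts in its activation. *Zbtb16* encodes the zinc-finger transcription factor PLZF, which is induced by glucocorticoid (chr9:48651797-48836225). It was at 8.91, 8.26, 12.8 and 5.77 FPKM in P7c, P7d, P10a and P10f and at 63.0, 48.9, 76.8 and 137 FPKM in P13.5c, P13.5d, P15c and P15e. The lowest later value was thus well above the highest earlier one, with a difference of 2.99 (SE 0.328, adjusted p = 0.0199). *Hsd11b1* encodes the enzyme that regenerates active corticosterone from its inert form within the tissue (chr1:193221640-193264045). Its values were 53.0, 55.9, 107 and 86.1 and then 338, 214, 243 and 363 FPKM (1.95, SE 0.265, adjusted p = 0.0232).

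The glucocorticoid list as a whole had these 2 genes called higher and none lower among 16 tested, against 0.088% of all genes tested called higher. In this list 13 differences were above 0 (6151 of all 12505 genes tested) and the median was 0.95 (0.64 without P10a). *Tsc22d3* (GILZ, a direct target of the receptor) was at 72.4 to 124 and then at 141 to 381 FPKM (1.30, adjusted p = 0.167), and *Klf9*, another target, at 24.2 to 32.4 and then at 46.4 to 98.7 FPKM (1.18, adjusted p = 0.116). Both had ranges that did not overlap, with the highest values in the P15 pair. *Fkbp5*, also a direct target, overlapped at 1.90 to 5.83 and 0.854 to 13.3 FPKM (adjusted p = 0.967), with its P13.5 values below and its P15 values above those of the earlier window. The receptor gene *Nr3c1* was at 54.0 to 71.8 FPKM in the earlier and 53.9 to 68.2 in the later libraries (-0.13, adjusted p = 0.839).

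*Gpx3* and *Fmo2*, an antioxidant and a detoxifying enzyme, also rose, as did *Inmt*. *Gpx3*, the secreted glutathione peroxidase (chr11:54902854-54910387), was at 27.2, 18.2, 15.6 and 39.3 FPKM and then at 111, 129, 206 and 250 FPKM (2.76, SE 0.332, adjusted p = 0.0199). *Fmo2*, the main flavin-containing monooxygenase of the lung, was at 26.1, 29.7, 67.3 and 52.5 and then at 164, 213, 151 and 262 FPKM (2.22, SE 0.308, adjusted p = 0.0234). *Inmt*, a methyltransferase of indolamines found in lung fibroblasts (chr6:55170627-55174990), was listed at 0 and at 0.328 FPKM at P7 and stood at 12.1 and 9.94 FPKM at P10, before reaching 107, 121, 59.9 and 166 FPKM in the later window. It had the largest difference of the 34 called genes, 4.85, and also a wide error (SE 0.800, adjusted p = 0.0474), its P7 values being near 0. *Gpx3* was the 1 called gene of 23 in the antioxidant list (median 0.39, or 0.22 without P10a) and *Fmo2* the 1 of 19 in the list of xenobiotic oxidases (median 0.40). *Sod3*, the extracellular superoxide dismutase, was at 6.91, 7.49, 22.7 and 41.8 and then at 66.4, 29.5, 109 and 124 FPKM, overlapping in 1 library (2.17, adjusted p = 0.279), and *Fmo1* at 77.6 to 114 and 99.5 to 214 FPKM (0.68, adjusted p = 0.415).

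The other called increases were structural, secretory or of less clear role. *Gsn*, the actin-severing protein gelsolin, was at 56.1, 49.9, 97.3 and 67.4 and then at 167, 198, 131 and 223 FPKM (1.42, SE 0.240, adjusted p = 0.0495). *Prelp*, a small leucine-rich proteoglycan that anchors basement membranes to connective tissue, was at 7.69 to 20.6 and then at 34.5 to 59.4 FPKM (1.73, adjusted p = 0.0495). *Mamdc2*, a MAM domain protein, was at 4.88 to 10.4 and then at 25.4 to 46.6 FPKM (2.06, adjusted p = 0.0232). *Vamp8*, a SNARE protein of regulated secretion, rose by 1.27, *Art4*, of the ADP-ribosyltransferase family, by 1.38 and *Mroh2b* by 1.14. Of the 11 increases, *Vamp8*, *Art4*, *Prelp* and *Mroh2b* no longer passed without P10a (adjusted p of 0.0697, 0.0697, 0.114 and 0.114).

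Genes of cell division lay mostly below their earlier levels, but none passed the test. In the mitosis and kinetochore list, 47 of 51 tested genes had a difference below 0 and the median was -0.87, against 50.8% below 0 among all genes tested, with 0 called in either direction. In the list of DNA replication the same was true of 36 of 41 genes, with a median of -0.46 and 0 called. *Ccna2*, cyclin A2, was at 22.6, 19.7, 12.5 and 9.51 FPKM and then at 0.836, 5.01, 13.8 and 5.04 FPKM (-1.53, adjusted p = 0.460). The replication licensing gene *Mcm3* was at 15.1 to 22.2 and then at 9.93, 9.41, 20.1 and 6.62 FPKM (-0.77, adjusted p = 0.507). In both genes P15c alone among the later libraries reached into the earlier range. The median deviation of the mitosis genes from their own means was 0.77 and 0.84 at P7, 0.20 and -0.02 at P10, -0.99 and -0.68 at P13.5, and 0.59 in P15c against -0.60 in P15e. Without P15c, 50 of the 51 mitosis genes were below 0 with a median of -1.30, and 38 of the 41 replication genes with a median of -0.63, still with 0 called. *Ttk*, a kinase of the spindle checkpoint, had the smallest p of the mitosis list. It was at 1.75, 6.01, 1.83 and 2.30 FPKM before and at 0, 0, 1.30 and 0.218 FPKM after (-1.50, adjusted p = 0.391).

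Mitotic genes are known to share promoter elements, and their promoters were read because their members moved to the same side. In the windows from 250 bases before to 50 after the start (RefSeq, GRCm38.p6), TTTGAA or its complement TTCAAA, the core of the cell cycle genes homology region, stood in 37 of the 48 mitosis genes with a promoter in the table (77.1%), in 6 of 36 replication genes (16.7%) and in 5466 of all 27025 promoters (20.2%). CCAAT or its complement ATTGG, the box bound by NF-Y, stood in 35 of the 48 mitosis promoters (72.9%), 21 of 36 replication promoters (58.3%) and 41.1% of all. TTCGAA, a variant of the first motif, was in 3 of the 48 (6.2%), against 1.8% of all. Both strands were searched, a promoter was counted once per motif, and no motif of the 3 contains another. The *Ttk* promoter and that of *Ncapd2*, a condensin subunit with the next smallest p in the list (9.43 to 18.3 and then 4.48 to 10.0 FPKM, -0.87, adjusted p = 0.460), are shown as examples with the 2 kinds of motif in capitals. The *Myl9* promoter is shown with its CArG box, the binding sequence of serum response factor in contractile genes, in capitals. The box was found in 1 of the 17 genes called lower that have a promoter in the table, that of *Myl9*, and in 1.8% of all promoters. Such matches describe the sequence and do not mark a bound site.
Ttk, chr9:83834439-83834738, plus strand: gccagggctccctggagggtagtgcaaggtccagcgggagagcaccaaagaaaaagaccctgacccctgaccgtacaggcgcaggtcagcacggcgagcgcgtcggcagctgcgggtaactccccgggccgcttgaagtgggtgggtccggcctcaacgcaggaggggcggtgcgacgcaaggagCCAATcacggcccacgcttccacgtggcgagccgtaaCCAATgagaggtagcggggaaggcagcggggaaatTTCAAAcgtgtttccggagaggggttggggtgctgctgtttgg
Ncapd2, chr6:125191537-125191836, minus strand: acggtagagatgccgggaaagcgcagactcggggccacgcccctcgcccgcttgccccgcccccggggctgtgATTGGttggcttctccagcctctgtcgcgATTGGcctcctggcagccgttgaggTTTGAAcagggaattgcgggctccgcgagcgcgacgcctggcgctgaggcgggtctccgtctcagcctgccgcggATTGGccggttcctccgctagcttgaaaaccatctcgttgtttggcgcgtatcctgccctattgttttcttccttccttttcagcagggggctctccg
Myl9, chr2:156775214-156775513, plus strand: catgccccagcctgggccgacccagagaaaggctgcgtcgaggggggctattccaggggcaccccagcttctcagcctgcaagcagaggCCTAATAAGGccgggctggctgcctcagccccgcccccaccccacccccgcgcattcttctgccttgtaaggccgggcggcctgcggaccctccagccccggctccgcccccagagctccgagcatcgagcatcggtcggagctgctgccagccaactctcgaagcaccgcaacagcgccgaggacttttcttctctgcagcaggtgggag

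The lists of both alveolar epithelial cell types lay mostly above 0 without a called gene. Of 20 tested type 1 cell genes, 18 had a difference above 0 (6151 of all 12505 genes tested), with a median of 0.39 and 0 called. *Ager* was at 308, 323, 183 and 179 FPKM and then at 521, 381, 334 and 524 FPKM (0.85, adjusted p = 0.361), and the water channel *Aqp5* at 30.6 to 42.5 and then at 51.0 to 71.0 FPKM (0.61, adjusted p = 0.317). *Hopx* overlapped, at 7.92 to 48.5 and 36.2 to 60.6 FPKM (adjusted p = 0.594). The summed level of the list was 1689 to 2329 FPKM before and 1941 to 3003 after, with P15c lowest among the later libraries (exact two-sided permutation test, p = 0.0857, 0.32 after adjustment over the 14 cell marker lists summed). Of 23 tested genes of type 2 cells and surfactant, 19 were above 0, with a median of 0.28 and 0 called. *Sftpc* overlapped at 5350 to 10580 and 6871 to 13030 FPKM (0.21, adjusted p = 0.931). The lamellar body gene *Lamp3* had non-overlapping ranges of 103 to 188 and 197 to 303 FPKM (0.77, adjusted p = 0.363).

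Endothelial lists held no called gene. The 19 pan-endothelial genes had a median of 0.12 with 0 called (14 above 0, and 18 above 0 with a median of 0.20 without P15c), and *Pecam1* was at 198 to 291 FPKM before and 204 to 276 after (-0.01, SE 0.182). Of 13 genes of general capillary cells, which act as progenitors in capillary repair, 0 were called (median 0.21). Among them *Plvap*, a diaphragm protein, was at 37.1, 55.9, 72.1 and 60.5 and then at 98.6, 121, 98.6 and 145 FPKM (1.05, adjusted p = 0.138), while *Aplnr*, the apelin receptor, overlapped (-0.79, adjusted p = 0.543). The 14 genes of aerocytes, the capillary cells of gas exchange, had 0 called and a median of -0.02, which turned to 0.04 under median ratio scaling. *Car4* and *Ednrb* differed by -0.06 and -0.39, neither past the test.

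Developmental signalling lists gave few calls. None of 43 tested Wnt genes (median -0.06), 20 Hedgehog genes (-0.34), 21 BMP genes (-0.25), 16 FGF genes (-0.11), 17 Notch genes (0.06), 17 retinoid genes (0.22) or 18 genes of VEGF, angiopoietin and apelin (-0.01) was called in the comparison of the 8 libraries. Without P10a the medians of the FGF, retinoid and VEGF lists were -0.31, 0.05 and -0.02, and without P15c those of the Wnt, FGF and VEGF lists were 0.02, -0.01 and 0.16. Single members stood out in their ranges. In the Hedgehog list the receptor component *Smo* was at 36.4 to 49.6 and then at 16.4 to 29.9 FPKM (-0.88, adjusted p = 0.193), and *Scube2*, which helps release Hedgehog ligand, was at 17.1 to 28.7 and then at 31.1 to 71.6 FPKM (1.36, adjusted p = 0.138). *Scube2* was called higher without P15c, as the 1 such gene of that list. The Wnt receptor *Fzd1* was at 30.7 to 60.5 and then at 16.5 to 22.5 FPKM (-1.09, adjusted p = 0.138). The BMP antagonist *Grem1* was at 3.71 to 14.2 and then at 0 to 3.38 FPKM (-2.32, adjusted p = 0.215). *Spry4*, an inhibitor induced by FGF signalling, was at 39.0 to 68.5 and then at 27.9 to 32.4 FPKM (-0.83, adjusted p = 0.192). Of 42 tested lung transcription factors, 28 lay below 0 (median -0.24) and *Zbtb16* was the 1 called.

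**Figure D3:**
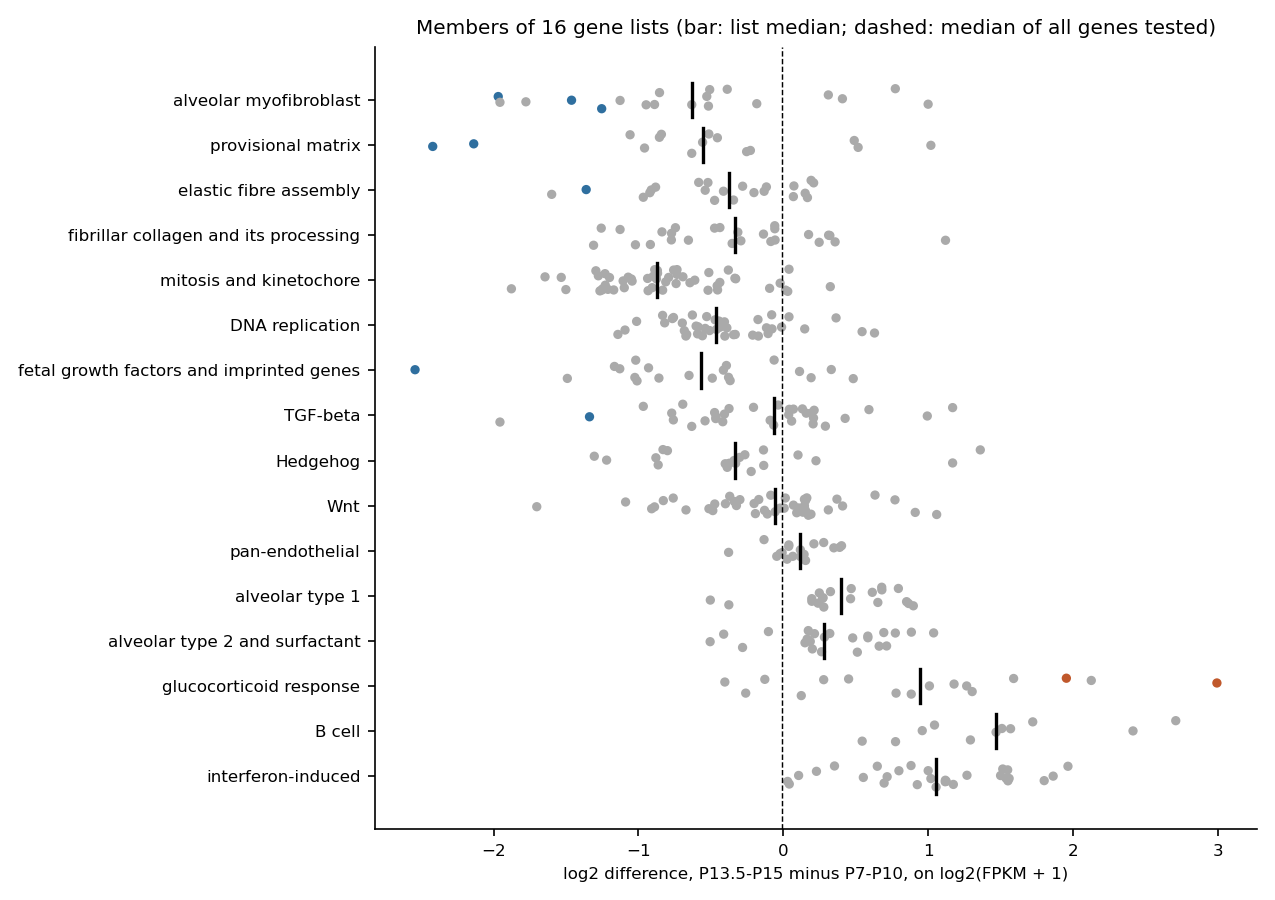
Each point is a tested member of 1 of 16 gene lists at its log2 difference (P13.5-P15 minus P7-P10), coloured where called (blue lower, orange higher), with a bar at the list median and a dashed line at the median of all genes tested (-0.01). Medians run from -0.87 for mitosis to 1.47 for B cells, and most points in every list are grey, that is, not called.

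Immune transcripts lay mostly above their earlier levels, in several lists mainly through a single animal. All 11 tested B cell genes, *Fcrla* among them, had a difference above 0, with a median of 1.47 and 0 called. *Ms4a1*, which encodes CD20, was at 0.448, 4.86, 0 and 3.68 FPKM and then at 11.3, 8.32, 18.3 and 13.5 FPKM (2.41, adjusted p = 0.199), and *Fcrla*, an Fc receptor-like protein of B cells, was at 0 to 0.426 and then at 4.00 to 15.8 FPKM. *Fcrla* passed the filter on low values only through the later window, so that its direction was fixed by the filter. The summed level of the B cell list was 17.6, 16.6, 36.3 and 40.3 FPKM before and 60.1, 104, 108 and 83.6 after. The groups did not overlap, with an exact two-sided permutation p of 0.0286, the smallest that 4 against 4 allows, and 0.32 after adjustment over 14 lists. Without P15c the median of the list was 1.21, and all 11 differences remained above 0.

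The interferon-induced list behaved differently. All 29 tested genes were above 0 with a median of 1.05 and 0 called, but the median was 0.35 without P15c, with 23 of 29 above 0. *Ifit3* was at 1.08, 1.33, 3.68 and 28.3 FPKM and then at 4.60, 13.9, 122 and 14.1 FPKM (1.96, SE 1.01, adjusted p = 0.587), so that P10f in the earlier and P15c in the later window were far above their neighbours. The deviation of the list was 2.53 in P15c and 1.16 in P10f, and -0.95 to 0.19 in the other 6 libraries. *Bst2*, an antiviral tether, was the exception with non-overlapping ranges of 10.8 to 25.5 and 45.8 to 107 FPKM (1.86, adjusted p = 0.0573). The lists of MHC class I and antigen processing (10 tested, median 0.82 and 0.20 without P15c), of MHC class II presentation (6 tested, 1.17 and 0.44) and of complement (13 tested, 1.08 and 0.45) were likewise smaller without P15c, each with 0 called. The summed markers of macrophages and other myeloid cells were 146 to 274 FPKM before and 246, 250, 1648 and 295 after. Those of T and NK cells were 33.4 to 80.1 before and 67.6, 66.4, 355 and 102 after, and those of neutrophils 91.7 to 444 before and 182, 154, 852 and 250 after. The part of these cells in the interferon values of P15c was not tested. The sums of the club cell, ciliated cell, erythroid, heart muscle, and lymphatic and mesothelial lists overlapped between the windows, and the heart genes *Myl2*, *Nppa* and *Sln* were at 0 in all 8 libraries.

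**Figure D4:**
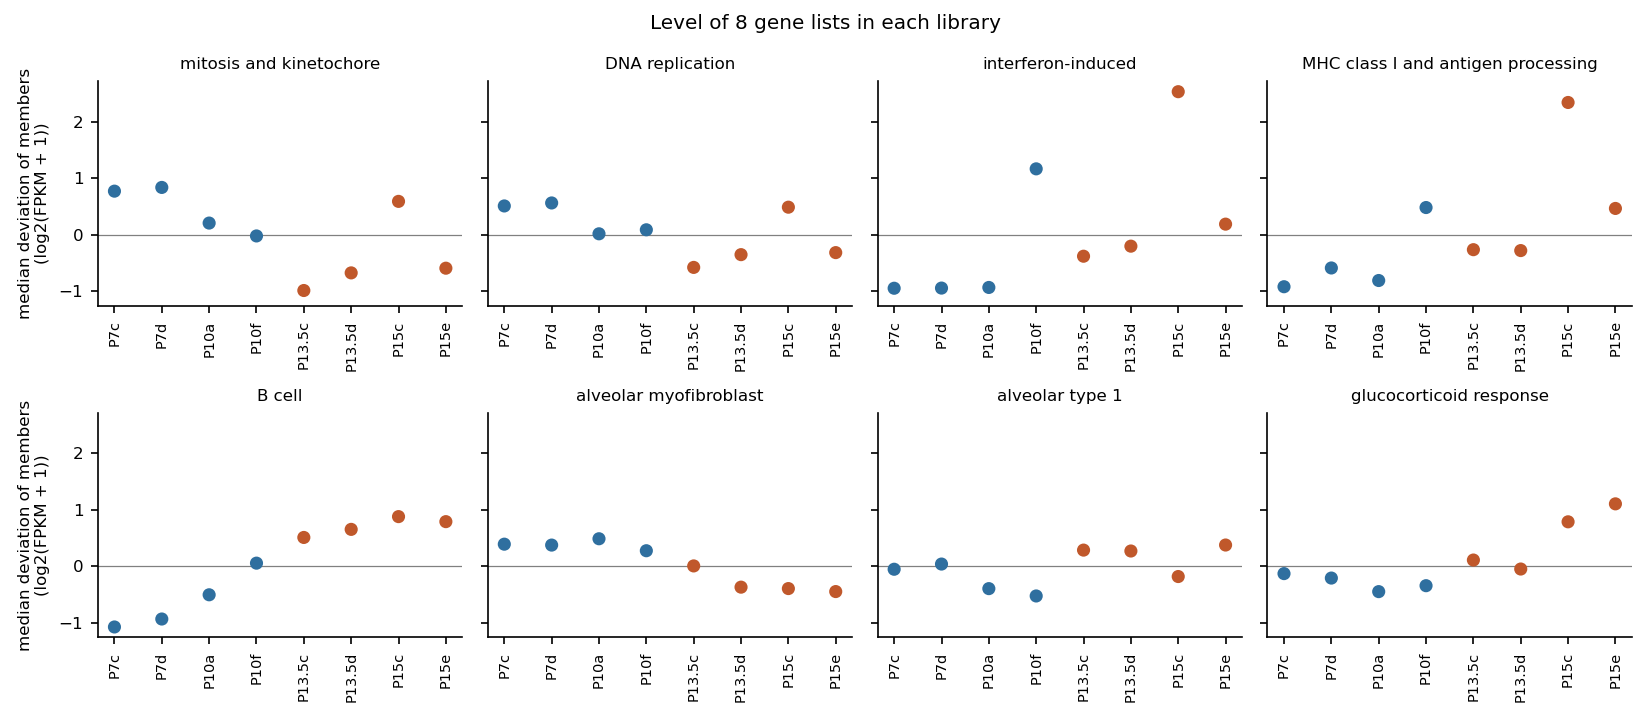
For 8 gene lists, the median over members of each gene's deviation from its own mean over the 8 libraries, on log2(FPKM + 1), with P7-P10 in blue and P13.5-P15 in orange. P15c is at 2.53 for interferon-induced genes and 0.59 for mitosis, apart from P15e, which is at 0.19 and -0.60.

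Taken by single ages, in a fit of all 29 libraries with 15 ages as groups, the step from P10 to P13.5 held more calls than its neighbours with P10a and fewer than the last without it. From P7 to P10, 1 gene was called (0.008%), from P10 to P13.5, 13 (0.104%, with 4 higher, 0.032%, and 9 lower, 0.072%), and from P13.5 to P15, 3 (0.024%, with 1 higher, 0.008%, and 2 lower, 0.016%). At an unadjusted p under 0.05 the numbers were 1680, 1655 and 1092. The steps share libraries, are of unequal length in days and each also crosses sex. The P10 to P13.5 calls included *Hoxb2* (-3.20), *Egfem1* (-2.98), *H19* (-2.17), *Vcan* (-1.83) and *Mamdc2* (1.88), and also *Col4a3*, a chain of the alveolar basement membrane (1.27, from 14.6 and 15.7 to 34.4 and 41.9 FPKM), and *Selenbp1*, a methanethiol oxidase (1.70). Without P10a, the 3 steps gave 0, 1 and 8 called genes. In the last step the immediate early gene *Nr4a1* went from 65.5 and 53.1 to 6.64 and 5.42 FPKM (-3.10, adjusted p = 0.000237) and the matricellular gene *Ccn1* from 176 and 148 to 34.2 and 22.3 FPKM (-2.50, adjusted p = 0.000237). Their earlier values of 23.9 to 33.1 and 60.8 to 80.7 FPKM lay between those of P13.5 and P15, so neither separated the windows.

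For the called genes, the middle step was the largest of the 3 in 23 of 23 decreases and 10 of 11 increases, against 53.1% of all genes tested taken in their own direction. The choice of genes by the window contrast favours that step, so this is a description. The median steps of the 23 genes were -0.24, -1.50 and -0.34 and those of the 11 genes 0.48, 1.48 and 0.14. *Inmt* was the 1 exception, with a first step of 3.38 and a middle step of 3.26.

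Set beside the neighbouring windows in a fit of all 29 libraries, P7-P10 minus P4-P5 gave 0 called genes (1048 at an unadjusted p under 0.05), P13.5-P15 minus P7-P10 gave 132 (1.06%, with 44 higher, 0.352%, and 88 lower, 0.704%) and P19-P28 minus P13.5-P15 gave 95 (0.76%, with 17 higher, 0.136%, and 78 lower, 0.624%). These contrasts share libraries, and P19d and P19f in the last window list many expressed genes at 0 (578 and 242). Of the 34 genes, 30 were among the 132. Among those called in the fit of 29 but not in that of 8 were *Tgfbi* (-1.96, adjusted p = 0.00176), *Fbn2* (-1.60, 0.00202), *Grb10* (-0.93, 0.00430), *Col12a1* (-1.31, 0.00182), *Scube2* (1.36, 0.0189), *Pdgfra* (0.77, 0.0295), *Igfbp3* (1.97, 0.0243), *Plvap* (1.05, 0.0351) and *Ms4a1* (2.41, 0.0188), each with its limma adjusted p in that fit. The test of the change in slope, which asks whether the difference between P7-P10 and P13.5-P15 departs from that between P4-P5 and P7-P10, called 0 genes (1045 at an unadjusted p under 0.05). Its smallest adjusted p was 0.126, shared by *Tnc*, *Egfem1* and *Mamdc2* among others, so no gene can be called particular to this interval.

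The 34 genes were then read in the libraries that the comparison had not used. Of these, P19d and P19f listed 578 and 242 of the 8623 widely expressed coding genes at 0. For P10a that number was 416. No fit left out P19d or P19f, so how far the P19-P28 values depend on them was not tested. Between P4-P5 (4 libraries) and P19-P28 (5 libraries), 1759 of the 12505 genes were called (14.1%, with 585 higher, 4.68%, and 1174 lower, 9.39%), and 33 of the 34 genes were called in their own direction, all but *Vamp8* (0.80, adjusted p = 0.186). The P4-P5 means lay on the P7-P10 side in 22 of 23 decreases, *Hoxb2* being the exception at 6.27 FPKM, and in all 11 increases. Among all 12505 genes tested this held for 7301. All 23 decreasing genes had a lower mean in P19-P28 than in P13.5-P15, as did 6279 of all 12505 genes tested. Single libraries could differ: *Acta2* was at 71.9 FPKM in P28c, above its 36.8 to 61.2 FPKM in P13.5-P15. *Tnc* went on to a mean of 10.0 FPKM, *Prss35* to 1.01 and *H19* to 1.92, whereas *Tgfb2* and *Igfbp4* were close to their P13.5-P15 means (17.4 after 17.9 and 111 after 119 FPKM). Of the 11 increases, *Hsd11b1* had a mean of 263 FPKM in P19-P28 after 289. The other 10 had a higher mean than in P13.5-P15, among them *Gsn* (349 after 180) and *Fmo2* (341 after 197). In P28c, however, *Fmo2* was at 96.8 FPKM, below its 151 to 262 FPKM in P13.5-P15. *Zbtb16* was at 48.9 to 137 FPKM in P13.5-P15. It was then at 47.7, 68.2 and 55.8 FPKM in P19d, P19f and P28c, and at 203 and 164 FPKM in the P23 pair.

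Some of the increasing genes had been above their P7 level around birth. *Fmo2* stood at 358 and 180 FPKM in the E18.5 libraries, *Hsd11b1* at 122 and 219 and *Inmt* at 43.5 and 11.03, before the lower values of P4 to P7 (22.7 to 39.6, 28.8 to 71.8 and 0 to 2.43 FPKM). *Zbtb16* stood at 45.5 and 46.1 FPKM in 1 library each of P1 and P1.5 and at 2.10 and 2.66 at P5. These values were not tested. *H19* had its highest values at E16.5 (2195 and 1986 FPKM) and its lowest at P23 (0.293 and 0.155 FPKM), and *Tnc* had its highest at P7.

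**Figure D5:**
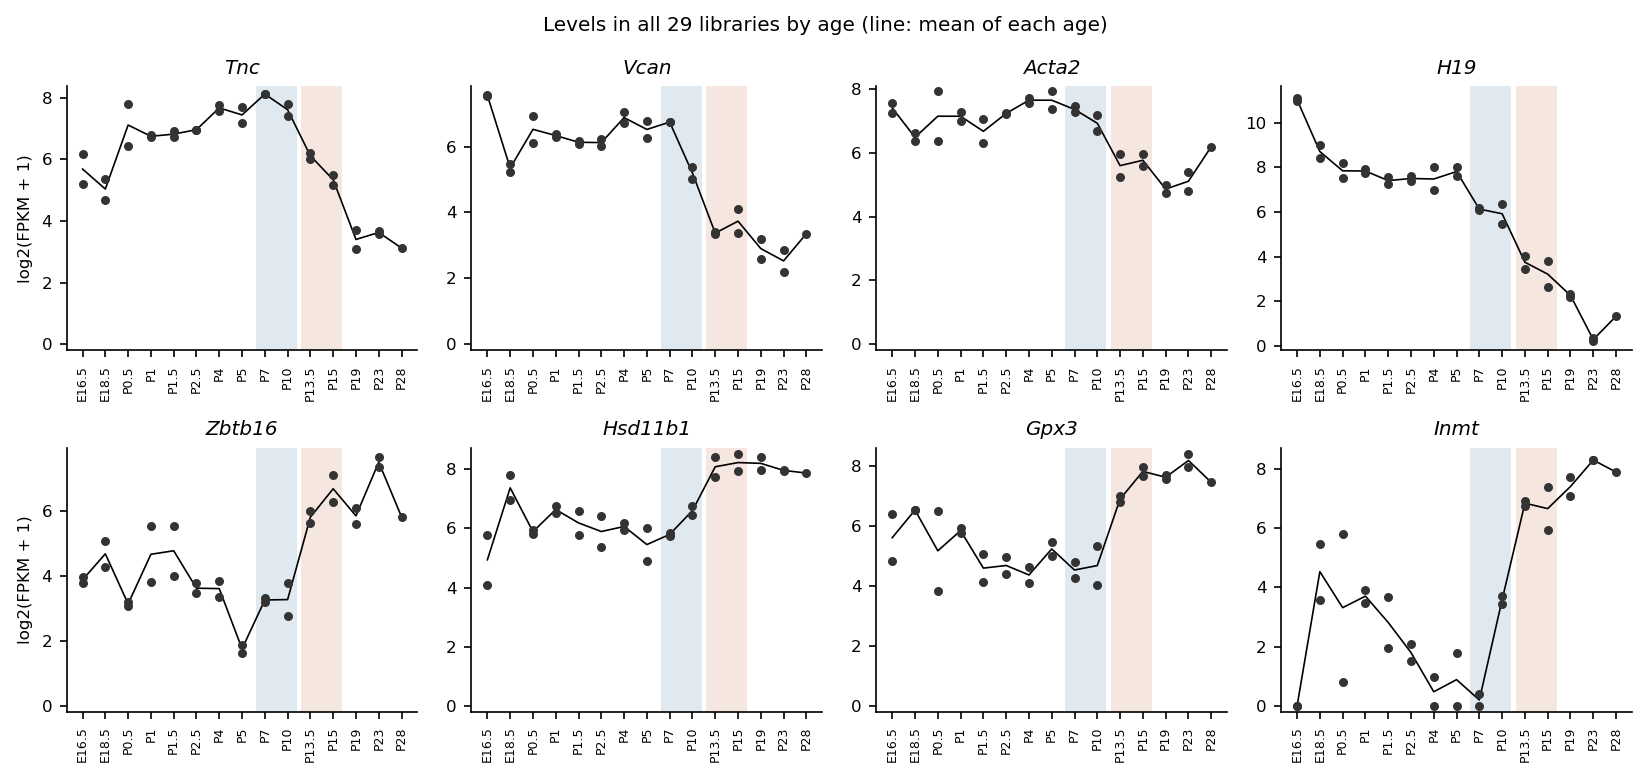
Levels of 8 called genes, log2(FPKM + 1), in all 29 libraries ordered by age (categories, not to scale in days), with a line through the mean of each age and the windows P7-P10 (blue) and P13.5-P15 (orange) shaded. *Tnc*, *Vcan*, *Acta2* and *H19* fall across the shaded interval, and *Zbtb16*, *Hsd11b1*, *Gpx3* and *Inmt* rise.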

How the data were processed

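RNA of laser-captured alveolar septa of 29 mice was sequenced, and 8 libraries enter the comparison. Per the labels, total RNA was depleted of ribosomal RNA (Ribo-Zero), made into TruSeq stranded libraries, aligned with STAR 2.5.1 and quantified with Cufflinks 2.2.1 on mm10. Annotation and settings are not given in the sources used here. The authors deposited FPKM values without counts, in 24486 lines for 22779 gene IDs. For IDs with several lines, of which 944 had differing ones, the line with the highest mean was kept. Symbols (22718 IDs matched) and coordinates came from RefSeq GRCm38.p6, the assembly of mm10.

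The filter required 4 or more of the 8 libraries to reach an FPKM of 1 (12505 genes; 24 passed through 1 window only, 0 of them called). The differences were fitted on log2(FPKM + 1) with limma 3.58.1 (R 4.3.3; eBayes, trend = TRUE), without covariates, with Benjamini-Hochberg adjustment at 0.05. Single ages and windows were fitted on all 29 libraries. In the window fits the spread is that between the pups of a window, which includes differences of age and sex within it. In the fit of single ages it is that between pups of an age. Sums of cell markers were compared by exact two-sided permutation (scipy 1.17.1). Lists are described by counts and medians, without a set test. The scripts were tested on simulated data. The windows, gene lists and tests were chosen with earlier results of these data known. The genes named were the 12 largest called decreases and all called increases without overlap and averaging an FPKM of 5 or more in the higher window, up to 6 members of each list by p with its first members, and for single ages up to 8 by p. Further called genes, *Enpp2*, *Col3a1* and the like were named to account for every call or to show the range of a list. Alternatives were a pseudocount of 0.1, no filter, a minimum of 5 FPKM, scaling by median ratios or quantiles, the fit of all libraries, each age as a group, array quality weights, the sum of lines, and leaving out each library. Steps and windows under other settings, the comparison of P19-P28 with P4-P5, lists without P15c and the CArG box were added after seeing the data. The gene called in the step from P7 to P10 is not reported here.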

Additional observations from a re-analysis of the deposited data

Results flagged for a closer look

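In 96 groups of 4 libraries (the called genes and the summed cell markers in each window), a library was marked where its gap to the nearest other exceeded 0.829 of the whole range, which chance gives in about 1 group in 20. There were 6 such groups, all in P13.5-P15. In P15c the summed markers of macrophages and myeloid cells reached 1648 FPKM (246 to 295 in the other 3), those of neutrophils 851.6 FPKM (154 to 250) and those of T and NK cells 355 FPKM (66.4 to 102). *Vcan* was at 16.15 FPKM in the same library against 9.09 to 9.60 in the others. *Pdlim3* was at 23.33 FPKM in P13.5c against 5.64 to 8.49, and *Fndc1* at 3.653 FPKM in P15e against 7.03 to 7.36. Even with these values, each of the 3 genes stayed below its whole earlier range.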

How the results depend on the processing

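No called gene changed direction under any alternative. The counts of 11 higher and 23 lower genes became 7 and 15 with a pseudocount of 0.1 (22 of the 34 kept), 0 and 0 without a filter on low values (1315 at an unadjusted p under 0.05), 44 and 88 in the fit of 29 libraries (30 kept) and 44 and 77 with array quality weights (34 kept). They stayed within 1.5 times under the filter at an FPKM of 5, both scalings, ages as groups and the sum of lines, which kept 27 to 34 of the 34. Leaving out 1 library gave 0 to 10 higher and 0 to 14 lower: 0 and 0 without P7c, 1 and 0 without P7d, 9 and 13 without P10a (19 kept), 10 and 14 without P10f, 2 and 7 without P13.5c, 3 and 9 without P13.5d, 6 and 12 without P15c, and 1 and 1 without P15e. Each of these fits had 1 library fewer, and the cause of the differing counts was not tested. The steps from P7 to P10, P10 to P13.5 and P13.5 to P15 gave 2, 37 and 13 genes with a pseudocount of 0.1 and 0, 1 and 8 without P10a, and the window difference in 29 libraries gave 85 with that pseudocount. With 3 libraries against 4 the exact test cannot go below 0.0571. No paired analysis was possible because the letters of the pups name different animals at each age. Depth is unknown, and values near 0 cannot be told from failed estimates.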
